A study of Homo sapiens with 9 samples.

Results

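The 9 genes described here carry or answer the signals of TGF-beta and of bone morphogenetic proteins (BMPs). They are the ligand TGFB1, the receptors TGFBR1 and TGFBR2, the signal transducer SMAD3, the inhibitory SMADs SMAD6 and SMAD7, and the transcriptional regulators ID1, ID2 and ID3. They were taken by symbol, and all 9 are among the 32906 genes listed for each library. Cells labelled Huh7, the name of a human hepatocellular carcinoma line, were transfected with siRNA. They received the control Scramble or one of 2 siRNAs against the histone demethylase KDM4C, Si-KDM4C#1 and Si-KDM4C#2. RNA was sequenced 48 hours later in 3 libraries per group, 9 in all. The labels do not say whether the 3 libraries of a group came from separate cultures, so p-values measure the spread between these libraries, which may be technical.

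TGF-beta brings together the receptors TGFBR2 and TGFBR1, which phosphorylate SMAD2 and SMAD3. BMPs act through related receptors, such as BMPR1A with BMPR2, which phosphorylate SMAD1, SMAD5 and SMAD9. Both kinds of SMAD join SMAD4 and enter the nucleus. SMAD6, SMAD7 and the ID genes are among the best known genes switched on there. The inhibitory SMADs feed back on the receptors, and the ID proteins bind E proteins such as TCF3 and keep them off DNA. In the liver, BMP6 drives the iron hormone hepcidin through this route, and TGF-beta is known for growth arrest and fibrosis.

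The promoters of ID1, ID2, ID3 and SMAD6 are shown because these are classical BMP targets, among them the 3 genes with the largest falls of the 9 (ID2, SMAD6 and ID1). Each line holds the 250 bases before the transcription start in RefSeq (GRCh38.p14), on the strand of the gene. The windows are chr20:31605039-31605288 (plus strand) for ID1, chr2:8681806-8682055 (plus strand) for ID2, chr1:23559502-23559751 (minus strand) for ID3 and chr15:66701986-66702235 (plus strand) for SMAD6. Capitals mark matches, on either strand, to the SMAD box CAGAC, which reads GTCTG on the other strand, the GC-rich SMAD palindrome GGCGCC, the E-box CACGTG and GTCTAGAC, a palindromic pair of SMAD half-sites that was added after the sequences had been seen.
ID1: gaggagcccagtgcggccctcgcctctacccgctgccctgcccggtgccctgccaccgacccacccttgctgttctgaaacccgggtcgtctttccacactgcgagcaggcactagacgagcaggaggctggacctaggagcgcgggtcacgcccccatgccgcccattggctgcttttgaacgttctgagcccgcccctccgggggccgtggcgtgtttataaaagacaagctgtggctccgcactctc
ID2: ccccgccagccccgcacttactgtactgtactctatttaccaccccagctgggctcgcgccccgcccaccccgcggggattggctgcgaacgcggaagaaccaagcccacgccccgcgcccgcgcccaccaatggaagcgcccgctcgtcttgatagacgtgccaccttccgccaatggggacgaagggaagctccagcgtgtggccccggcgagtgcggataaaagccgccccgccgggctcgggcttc
ID3: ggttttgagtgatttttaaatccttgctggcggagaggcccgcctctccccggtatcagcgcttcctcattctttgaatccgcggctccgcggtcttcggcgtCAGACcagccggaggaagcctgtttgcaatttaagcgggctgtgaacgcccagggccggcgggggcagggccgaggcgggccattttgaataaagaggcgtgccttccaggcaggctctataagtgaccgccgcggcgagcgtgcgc
SMAD6: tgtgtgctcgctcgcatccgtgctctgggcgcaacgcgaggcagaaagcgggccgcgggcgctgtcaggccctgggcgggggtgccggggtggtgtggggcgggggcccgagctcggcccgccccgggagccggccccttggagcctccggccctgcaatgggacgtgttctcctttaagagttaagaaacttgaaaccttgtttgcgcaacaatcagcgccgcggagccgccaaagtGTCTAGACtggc
Over 300 bases, from 250 before to 50 after the start, the windows of ID1 and ID2 held none of the sequences searched. That of ID3 held a SMAD box beginning 147 bases before the start, and that of SMAD6 held GTCTAGAC beginning 12 bases before it. Of 35116 RefSeq windows of this length, 45.3% held the SMAD box, 19.2% GGCGCC, 7.26% CACGTG and 0.202% GTCTAGAC. The low share of GTCTAGAC says nothing about SMAD6, since its presence there was known when it was added. A match is a description of the letters and not a measured site.

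The libraries held 14597502 to 18058556 fragments, recovered from the deposited values. Levels are in FPKM, fragments per kilobase of exon scaled to the fragments mapped in the library, so they can be compared between genes. At this depth 3 fragments correspond to 0.166 to 0.206 FPKM when the exons span 1 kb, a floor that covers counting error only. All 10 listed mRNAs of a 13-gene hepatocyte list, AFP and HNF4A included, stayed below 1 FPKM throughout. These values do not bear out a hepatocyte-like identity, and Huh7 is the name the labels give. Epithelial markers (KRT8, KRT18 and CDH1, the last under 1 FPKM) summed to 330 to 353 FPKM with Scramble, 290 to 309 with Si-KDM4C#1 and 240 to 254 with Si-KDM4C#2. Their means did not move together: KRT8 was at 199.5, 138.4 and 147.2 FPKM in that order, and KRT18 at 140.5, 162.4 and 98.8 FPKM. In the same order, 6 mesenchymal markers summed to 84.7 to 94.996, 91.5 to 94.4 and 128 to 130 FPKM. The sum was carried by VIM (means 51.6, 50.4 and 66.2 FPKM) and COL3A1 (27.5, 38.5 and 55.5 FPKM), while LUM (6.97, 3.58 and 6.15 FPKM) and PDGFRB (1.95, 0.308 and 1.03 FPKM) were at lower means with each siRNA than with Scramble. None of the 3 listed endothelial or 4 listed leukocyte markers reached 1 FPKM in any library. Whether these marker shifts had a part in the results was not tested, and in bulk RNA fewer cells of a type and less RNA per cell cannot be told apart.

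KDM4C mRNA was at 4.88, 4.63 and 4.57 FPKM in the Scramble libraries, at 1.18, 1.10 and 1.13 FPKM with Si-KDM4C#1 and at 0.256, 0.349 and 0.256 FPKM with Si-KDM4C#2. The target was lower in all 6 knockdown libraries than in any control library. Its paralog KDM4B was at 6.67, 6.06 and 6.10 FPKM with Scramble, at 6.42, 5.73 and 5.16 FPKM with Si-KDM4C#1 and at 1.10, 1.17 and 1.26 FPKM with Si-KDM4C#2. Si-KDM4C#2 therefore lowered both demethylase mRNAs (log2 fold change of KDM4B -1.74, adjusted p = 1.43e-07 in limma). Whether the lower KDM4B had a part in the differences between the siRNAs was not tested.

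ID2 fell with both siRNAs, to 30.6% of its Scramble mean with Si-KDM4C#1 and 32.8% with Si-KDM4C#2. Under Si-KDM4C#1, ID1 and SMAD6 fell to 49.8% and 41.4% of Scramble. Under Si-KDM4C#2, ID1 stood at 101% and SMAD6 fell to 80.1%. TGFB1 fell with Si-KDM4C#2 to 68.5% of its Scramble mean. The receptors TGFBR1 and TGFBR2 were lower than Scramble with Si-KDM4C#1 and higher with Si-KDM4C#2. The rise of both and the fall of TGFBR1 did not hold in every fit.

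Calls were made on log2(FPKM + 1) with limma-trend, all 9 libraries in 1 fit, over the 14363 genes that averaged 1 FPKM or more in some group, at a Benjamini-Hochberg FDR < 0.05. With Si-KDM4C#1, 6 of the 9 genes were lower than Scramble and 0 were higher, and 65.7% of all tested genes were called (33.9% lower and 31.7% higher). With Si-KDM4C#2, 4 were lower and 2 higher, where 59.4% of all tested genes were called (25% lower and 34.4% higher). Between the siRNAs, 5 were higher and 2 lower with Si-KDM4C#2 (62.4% of all genes, 35.9% higher and 26.5% lower). Both siRNAs together against Scramble gave 5 lower and 0 higher (63.4% of all genes, 30.8% lower and 32.6% higher). A fold change over 2 in addition was met by SMAD6 and ID2 with Si-KDM4C#1 (8.87% of all genes, 4.83% lower) and by ID2 alone with Si-KDM4C#2 (4.89%, 2.3% lower) and with both together (4.14%, 1.96% lower). Only 0.78% of all tested genes were lower past both limits with both siRNAs, as ID2 was. The median log2 fold change of the 9 genes was -0.32 with Si-KDM4C#1, where that of all tested genes was -0.03. With Si-KDM4C#2 it was -0.07, where that of all tested genes was 0.06.

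**Figure D1:**
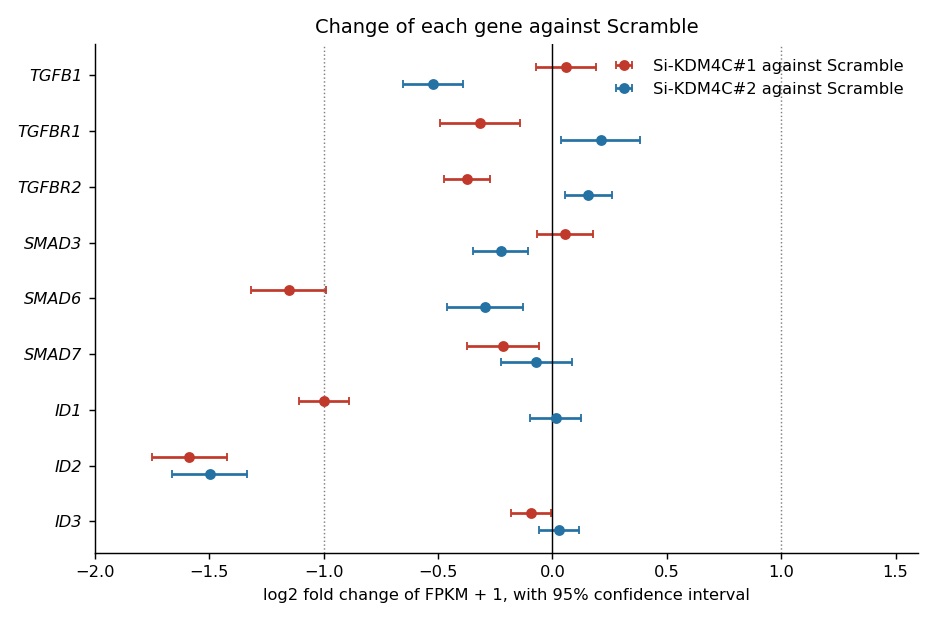
Log2 fold change of FPKM + 1 against Scramble (x axis) for each of the 9 genes (y axis), with the 95% confidence interval of the limma fit, for Si-KDM4C#1 (red) and Si-KDM4C#2 (blue), 3 libraries per group; dotted lines mark a fold change of 2. ID2 lies near -1.5 with both siRNAs, while ID1 lies at -0.998 with Si-KDM4C#1 and at 0.01 with Si-KDM4C#2.

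In the Scramble libraries, ID1 was the most abundant of the 9 mRNAs at 158 ± 5.64 FPKM (SD, n = 3), above 98.8% of all tested genes. ID3 followed at 102 ± 1.20, then TGFB1 at 28.7 ± 1.70, ID2 at 24.7 ± 1.58, TGFBR2 at 22.0 ± 0.811 and TGFBR1 at 20.7 ± 1.25 FPKM. SMAD6 at 15.7 ± 1.59, SMAD7 at 13.3 ± 0.698 and SMAD3 at 10.4 ± 0.222 FPKM were the lowest. Of neighbours in this order, TGFBR2 and TGFBR1 overlapped between libraries, and the lowest library of SMAD6 (14.16 FPKM) lay just above the highest of SMAD7 (14.12 FPKM). With Si-KDM4C#1 the order changed at the genes that fell: ID1 (78.7 ± 5.14 FPKM) came below ID3 (95.2 ± 4.61), and SMAD6 (6.51 ± 0.517) became the lowest of the 9.

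**Figure D2:**
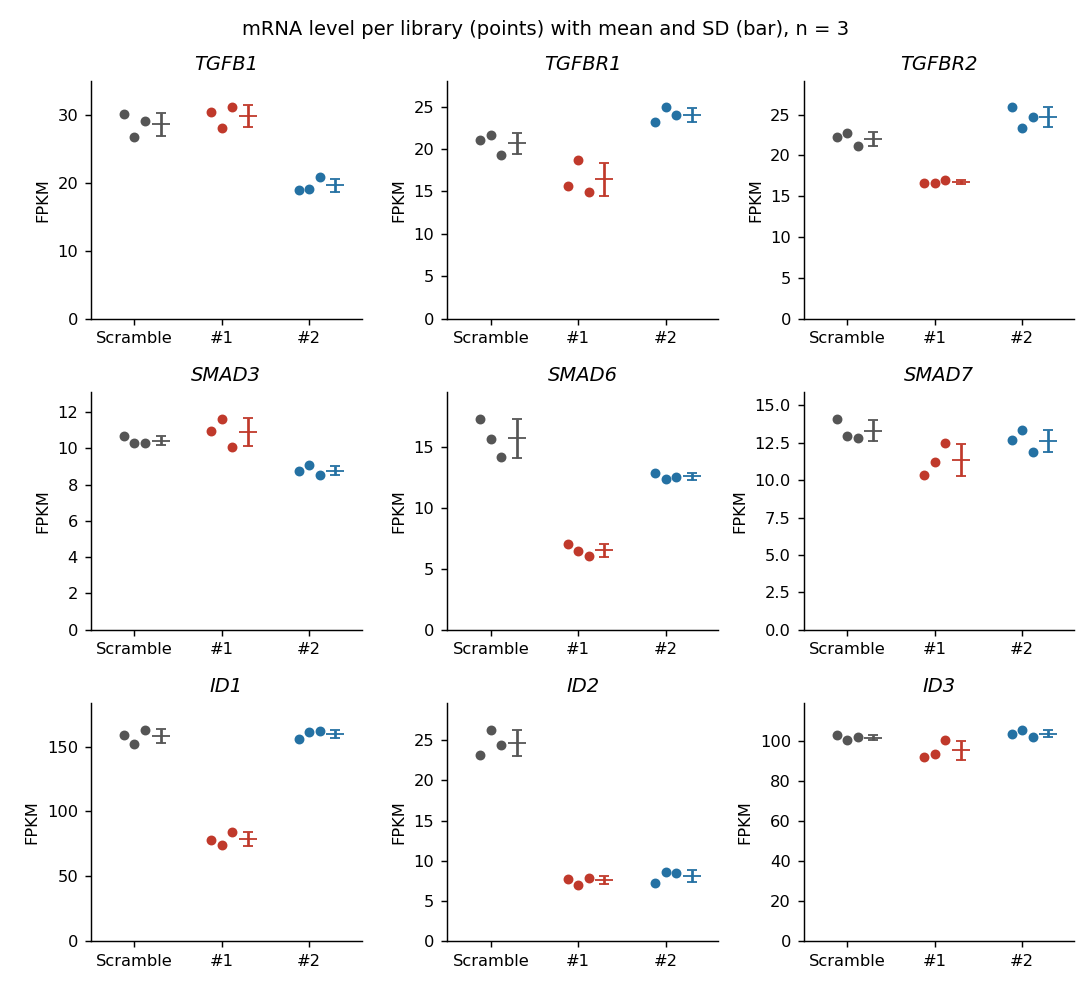
FPKM of each gene (y axes, from 0) in each of the 3 libraries (points) of Scramble, Si-KDM4C#1 and Si-KDM4C#2 (x axes), with the group mean and SD beside them. All 6 knockdown libraries of ID2 lie between 6.99 and 8.597 FPKM, below the 3 Scramble libraries at 23.2 to 26.3 FPKM.

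TGFB1 encodes the main TGF-beta ligand and lies on chromosome 19 from 41301587 to 41353911, minus strand (GRCh38, GENCODE 29). Its mRNA was at 30.2, 26.8 and 29.1 FPKM with Scramble, 30.4, 28.1 and 31.2 FPKM with Si-KDM4C#1 and 19.0, 19.1 and 20.8 FPKM with Si-KDM4C#2. The Si-KDM4C#2 libraries lay below all others, and the other groups overlapped. Its log2 fold change was -0.52 with Si-KDM4C#2 (SE 0.058, adjusted p = 4.58e-05 in limma) and 0.06 with Si-KDM4C#1 (adjusted p = 0.404), and the siRNAs differed by -0.58 (adjusted p = 1.86e-05). Under an adjustment of each library for GC content, the value with Si-KDM4C#1 turned to -0.17 (adjusted p = 0.0216). Exons of TGFB1 overlap those of HNRNPUL1 on the other strand (up to 65.7 FPKM), and fragments of the pair cannot be told apart if counting ignored strand, which the sources used here do not state.

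TGFBR1, the signalling kinase of the receptor pair (chromosome 9, 99104038 to 99154192, plus strand), was at 21.1, 21.6 and 19.2 FPKM with Scramble. It was at 15.7, 18.7 and 14.98 FPKM with Si-KDM4C#1 and at 23.2, 24.9 and 23.997 FPKM with Si-KDM4C#2, and the 3 groups did not overlap. TGFBR2, the receptor that binds the ligand first (chromosome 3, 30606502 to 30694142, plus strand), was at 22.2, 22.7 and 21.1 FPKM with Scramble. It was at 16.7, 16.6 and 17.0 FPKM with Si-KDM4C#1 and at 25.9, 23.4 and 24.8 FPKM with Si-KDM4C#2, again with no overlap. For the whole table, 69.4% of genes did not overlap between Scramble and Si-KDM4C#1, and 65.3% did not between Scramble and Si-KDM4C#2.

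With Si-KDM4C#1 the log2 fold change was -0.32 for TGFBR1 (SE 0.077, adjusted p = 0.00486 in limma) and -0.37 for TGFBR2 (SE 0.045, adjusted p = 5.49e-05). With Si-KDM4C#2 it was 0.21 for TGFBR1 (adjusted p = 0.0389) and 0.16 for TGFBR2 (adjusted p = 0.0133). The direct difference between the siRNAs was 0.53 for both receptors (adjusted p = 0.00023 for TGFBR1 and 6.01e-06 for TGFBR2), so both receptors were higher with Si-KDM4C#2 than with Si-KDM4C#1. Calls in opposite directions against the shared Scramble libraries were found for 9.77% of all tested genes. The rise with Si-KDM4C#2 was lost with quantile normalization (0.08 for TGFBR1 and 0.02 for TGFBR2) and, for TGFBR2, with limma voom on the recovered fragments (0.10, adjusted p = 0.11). It was also lost for TGFBR1 without any of Scramble libraries 1 and 3 or Si-KDM4C#2 libraries 1, 2 and 3 (0.16 to 0.23, highest adjusted p = 0.129) and for TGFBR2 without Si-KDM4C#2 library 1 (0.12, adjusted p = 0.0531). The fall of TGFBR1 with Si-KDM4C#1 was lost under the GC adjustment (-0.05, adjusted p = 0.532).

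SMAD3, a transducer of the TGF-beta signal on chromosome 15 (67063763 to 67195195, plus strand), was at 10.7, 10.3 and 10.3 FPKM with Scramble and 11.0, 11.6 and 10.1 FPKM with Si-KDM4C#1. With Si-KDM4C#2 it was at 8.74, 9.05 and 8.52 FPKM, below every other library. Its log2 fold change was -0.23 with Si-KDM4C#2 (SE 0.054, adjusted p = 0.00505 in limma) and 0.06 with Si-KDM4C#1 (95% interval -0.07 to 0.18, adjusted p = 0.385). The Si-KDM4C#1 value changed sign between settings, and was -0.04 with the GC adjustment (adjusted p = 0.49 in limma) and 0.13 with voom on recovered fragments (adjusted p = 0.0524, and 0.0391 with the replicate block).

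SMAD6, which chiefly restrains BMP receptors, lies on the same chromosome from 66702228 to 66782848 (plus strand). It was at 17.3, 15.7 and 14.2 FPKM with Scramble, 7.06, 6.46 and 6.03 FPKM with Si-KDM4C#1 and 12.9, 12.4 and 12.5 FPKM with Si-KDM4C#2. The groups did not overlap, and the Si-KDM4C#1 libraries were the lowest. SMAD6 fell by 1.15 on the log2 scale with Si-KDM4C#1 (SE 0.074, adjusted p = 7.15e-07 in limma) and by 0.30 with Si-KDM4C#2 (adjusted p = 0.00659). The fall was larger with Si-KDM4C#1, with a direct difference of 0.86 (adjusted p = 6.41e-06).

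SMAD7, which restrains both kinds of receptor, lies on chromosome 18 from 48919853 to 48952052 (minus strand). Its libraries were at 14.1, 13.0 and 12.8 FPKM with Scramble, 10.4, 11.2 and 12.5 FPKM with Si-KDM4C#1 and 12.7, 13.4 and 11.9 FPKM with Si-KDM4C#2. The Si-KDM4C#1 libraries lay below all Scramble libraries, and the Si-KDM4C#2 libraries overlapped both groups. Under Si-KDM4C#1, SMAD7 changed by -0.22 on the log2 scale (SE 0.070, adjusted p = 0.0201 in limma). That call did not hold without Scramble library 1 (-0.18, adjusted p = 0.07), Si-KDM4C#1 library 1 (-0.16, adjusted p = 0.0738) or Si-KDM4C#1 library 2 (-0.21, adjusted p = 0.0533). With Si-KDM4C#2 the log2 fold change was -0.07 (adjusted p = 0.412), and the siRNAs differed by 0.15 (95% interval -0.01 to 0.30, adjusted p = 0.0921). Under the GC adjustment SMAD7 was lower with Si-KDM4C#2 as well (-0.25, adjusted p = 0.0108).

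ID1, a direct BMP target in many cell types, lies on chromosome 20 from 31605283 to 31606515 (plus strand). It was at 159, 152 and 163 FPKM with Scramble, 78.3, 73.8 and 84.1 FPKM with Si-KDM4C#1 and 156, 161 and 162 FPKM with Si-KDM4C#2. The Si-KDM4C#1 libraries stood apart from all others, and the other groups overlapped. Over the 3 libraries of a group, ID1 was covered by 9392 fragments in the control, 4738 under Si-KDM4C#1 and 9476 under Si-KDM4C#2. The log2 fold change under Si-KDM4C#1 was -0.998 (SE 0.049, 95% interval -1.11 to -0.89, adjusted p = 1.47e-07 in limma). This is a fold change of 1.998, just under the limit of 2, and it passed that limit with quantile normalization (-1.13), a pseudocount of 0.1 (-1.01) and the GC adjustment (-1.16).

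With Si-KDM4C#2 the log2 fold change of ID1 was 0.01 (95% interval -0.10 to 0.12, adjusted p = 0.823 in limma), and it turned to -0.19 under the GC adjustment (adjusted p = 0.0147). The direct difference between the siRNAs was 1.01 (SE 0.049, adjusted p = 1.82e-07), the only one of the 9 past a fold change of 2, which 6.91% of all genes passed (4.41% higher). It ran from 0.89 to 1.13 over the alternative fits and kept its direction in each of them.

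ID2 lies on chromosome 2 from 8678845 to 8684453 (plus strand) and, like ID1, encodes a partner of E proteins without a DNA-binding region of its own. It was at 23.2, 26.3 and 24.5 FPKM with Scramble, 7.73, 6.99 and 7.90 FPKM with Si-KDM4C#1 and 7.26, 8.597 and 8.43 FPKM with Si-KDM4C#2. Every knockdown library was below every control library, and the knockdown groups overlapped. ID2 fell by 1.59 on the log2 scale with Si-KDM4C#1 (SE 0.073, adjusted p = 9.76e-08 in limma) and changed by -1.498 with Si-KDM4C#2 (SE 0.073, adjusted p = 2.47e-07). The siRNAs differed by 0.09 (95% interval -0.08 to 0.25, adjusted p = 0.314). Over the alternative fits, the fall lay between -1.70 and -1.56 for Si-KDM4C#1 and between -1.67 and -1.498 for Si-KDM4C#2. The antisense gene ID2-AS1 shares exonic sequence with ID2 and reached at most 0.854 FPKM.

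ID3, on chromosome 1 from 23557918 to 23559794 (minus strand), was at 103, 100.3 and 102 FPKM with Scramble and 91.8, 93.3 and 100.4 FPKM with Si-KDM4C#1. With Si-KDM4C#2 it was at 103, 106 and 102 FPKM. The libraries of each siRNA overlapped the Scramble libraries, and those of Si-KDM4C#2 lay above those of Si-KDM4C#1. Its log2 fold change was -0.09 with Si-KDM4C#1 (95% interval -0.18 to -0.01, adjusted p = 0.0561 in limma) and 0.03 with Si-KDM4C#2 (95% interval -0.06 to 0.12, adjusted p = 0.546). ID3 thus did not pass the test with either siRNA, although its libraries held 8327 to 8955 fragments per group. It was lower with Si-KDM4C#1 under quantile normalization (-0.28, adjusted p = 2.32e-05), under the GC adjustment (-0.24, adjusted p = 0.000857) and without Si-KDM4C#1 library 3 (-0.13, adjusted p = 0.00806). With Si-KDM4C#2 it was lower under the GC adjustment (-0.16, adjusted p = 0.0123). The siRNAs differed by 0.12 (adjusted p = 0.0198), a call lost with voom on recovered fragments (-0.0038), under the GC adjustment (0.08) and without Si-KDM4C#1 library 1 or 2 or Si-KDM4C#2 library 2 (0.10 to 0.11, highest adjusted p = 0.0708).

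The rest of the pathway was read from 92 further genes in 8 lists, of which 87 are listed and 64 passed the filter. With Si-KDM4C#1, 22 of these 64 were higher, 22 lower and 20 did not pass FDR < 0.05. The counts with Si-KDM4C#2 were 22, 21 and 21. The shares past FDR were 68.8% and 67.2%, beside 65.7% and 59.4% of all tested genes. Past FDR and a fold change of 2, 6 were higher and 7 lower with Si-KDM4C#1 (20.3%, beside 8.87% of all genes), against 3 raised and 4 lowered by Si-KDM4C#2 (10.9%, beside 4.89%). The lists were chosen with earlier results of these data known, so these shares cannot be read as a result about the pathway. The list itself was not tested. The median log2 fold changes of the 64 genes were -0.01 and -0.01.

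**Figure D3:**
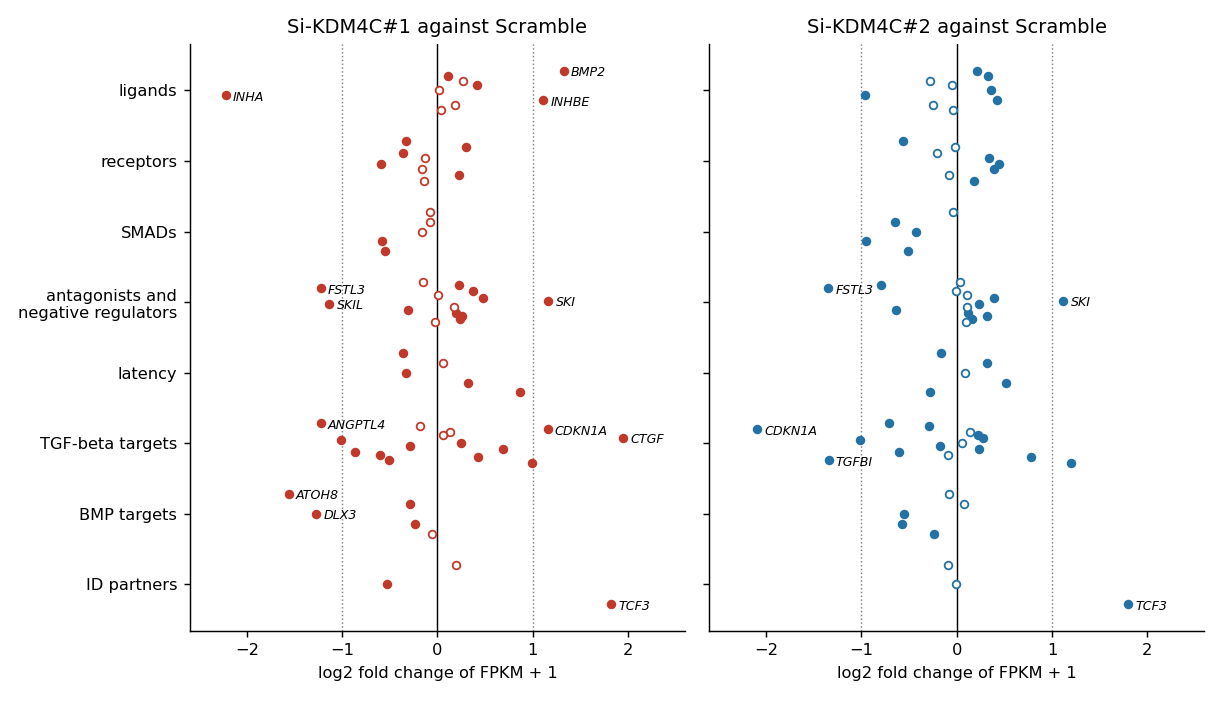
Log2 fold change of FPKM + 1 against Scramble (x axes) of 64 pathway genes in 8 lists (y axis) with Si-KDM4C#1 (left) and Si-KDM4C#2 (right); filled points passed FDR < 0.05, open points did not, dotted lines mark a fold change of 2 and named genes passed both limits. CDKN1A lies at 1.16 on the left and at -2.09 on the right, while TCF3 lies near 1.8 on both sides.

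Among the other ligands, 4 of 9 tested were higher and 1 lower with each siRNA. BMP2, a ligand of the BMP receptors, was at 22.1, 20.8 and 19.9 FPKM with Scramble, 50.5, 53.5 and 57.4 FPKM with Si-KDM4C#1 and 23.6, 25.1 and 24.5 FPKM with Si-KDM4C#2. On the log2 scale it rose by 1.32 with Si-KDM4C#1 (adjusted p = 5.85e-08 in limma) and by 0.22 with Si-KDM4C#2 (adjusted p = 0.00723), the second of which was lost under quantile normalization (0.08) and the GC adjustment (0.12). BMP2 was thus highest in the libraries in which ID1 and SMAD6 were lowest. INHA, the inhibin alpha subunit, was at 12.2, 10.7 and 11.98 FPKM with Scramble, 1.99, 1.45 and 1.70 FPKM with Si-KDM4C#1 and 5.12, 5.83 and 5.52 FPKM with Si-KDM4C#2. It fell with both siRNAs (log2 fold changes -2.22 and -0.96, adjusted p = 3.41e-08 and 9.27e-06). INHBE, an inhibin beta subunit known from liver, rose with Si-KDM4C#1 (1.11, adjusted p = 0.000123) and stood 0.42 above Scramble on the log2 scale with Si-KDM4C#2 (adjusted p = 0.0356), a call lost under the GC adjustment (0.25) and without Scramble library 2 or 3 or Si-KDM4C#2 library 2 or 3 (0.33 to 0.45).

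None of the 8 tested further receptors passed a fold change of 2 against Scramble. Under Si-KDM4C#1, 2 rose and 3 fell (31.7% and 33.9% of all tested genes). Under Si-KDM4C#2, 4 rose and 1 fell (34.4% and 25% of all tested genes). BMPR1A, a BMP type I receptor named here after its values were seen, moved as the TGF-beta receptors did. It was at 4.14, 4.64 and 4.32 FPKM with Scramble, 2.55, 2.73 and 2.41 FPKM with Si-KDM4C#1 and 6.43, 6.06 and 6.43 FPKM with Si-KDM4C#2. Against Scramble it changed by -0.59 and 0.45 on the log2 scale (adjusted p = 1.46e-05 and 0.000141 in limma), and the siRNAs differed by 1.04 (adjusted p = 4.69e-07).

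Of the 5 other SMADs, 2 were lower with Si-KDM4C#1 and 4 with Si-KDM4C#2 (33.9% and 25% of all tested genes), and 0 were higher with either. SMAD5, a BMP transducer also named after its values were seen, was at 11.5, 11.6 and 11.8 FPKM with Scramble, 6.93, 7.78 and 7.57 FPKM with Si-KDM4C#1 and 4.93, 5.96 and 5.73 FPKM with Si-KDM4C#2. It fell with both siRNAs, by 0.59 and 0.95 on the log2 scale (adjusted p = 3.45e-05 and 2.17e-06 in limma). The related SMAD9 fell with both as well (-0.55 and -0.52, adjusted p = 0.00124 and 0.00215), and SMAD1 passed with neither (-0.08 and -0.04). SMAD2 and SMAD4 fell with Si-KDM4C#2 (-0.64 and -0.42, adjusted p = 6.42e-06 and 0.000402) and had -0.08 and -0.16 with Si-KDM4C#1 (adjusted p = 0.231 and 0.0561). Under the GC adjustment SMAD2 turned to 0.18 with Si-KDM4C#1 (adjusted p = 0.0141), and without Scramble library 3 SMAD4 was lower there (-0.24, adjusted p = 0.00322).

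The antagonists and negative regulators had 7 of 14 tested genes raised and 3 lowered by Si-KDM4C#1 (31.7% and 33.9% of all tested genes). With Si-KDM4C#2, 6 were raised and 3 lowered (34.4% and 25% of all tested genes). FSTL3, a secreted antagonist of activins, was at 181, 164 and 165 FPKM with Scramble, 71.1, 74.5 and 70.4 FPKM with Si-KDM4C#1 and 66.1, 66.5 and 65.2 FPKM with Si-KDM4C#2. It fell with both siRNAs (log2 fold changes -1.22 and -1.35, adjusted p = 2.53e-08 and 3.92e-08 in limma). SKI, a nuclear corepressor of SMADs, was at 12.4, 11.8 and 12.4 FPKM with Scramble, 30.1, 28.6 and 27.3 FPKM with Si-KDM4C#1 and 29.02, 25.6 and 28.5 FPKM with Si-KDM4C#2. It rose with both (1.17 and 1.118, adjusted p = 1.15e-07 and 2.73e-07). Its relative SKIL went from 7.67, 6.96 and 6.49 FPKM to 2.75, 2.82 and 2.42 FPKM with Si-KDM4C#1 and was at 8.51, 7.81 and 8.96 FPKM with Si-KDM4C#2. SKIL fell with Si-KDM4C#1 (-1.13, adjusted p = 8.16e-07) and was higher with Si-KDM4C#2 (0.23, adjusted p = 0.0224). The higher level was lost without Scramble library 2 or 3 or Si-KDM4C#2 library 1 or 3 (0.18 to 0.22, highest adjusted p = 0.0833), and with no filter on low values (adjusted p = 0.0546).

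Genes of ligand latency and activation gave no call past a fold change of 2 of FPKM + 1, with 2 of 5 tested higher and 2 lower under each siRNA. The added 1 shrinks changes of low genes such as THBS1. Its means were 1.95 FPKM with Scramble, 4.37 with Si-KDM4C#1 (224% of Scramble) and 1.42 with Si-KDM4C#2. The list of 15 genes induced by TGF-beta in other cells split in direction, 6 rising and 6 falling under Si-KDM4C#1, 5 rising and 7 falling under Si-KDM4C#2. CDKN1A, the cell cycle inhibitor p21, was at 218, 205 and 199 FPKM with Scramble, 417, 476 and 500 FPKM with Si-KDM4C#1 and 48.3, 49.2 and 46.0 FPKM with Si-KDM4C#2. It rose with Si-KDM4C#1 and fell with Si-KDM4C#2 (log2 fold changes 1.16 and -2.09, adjusted p = 3.63e-07 and 3.51e-08 in limma). CTGF, a matricellular protein, was at 2.75, 2.61 and 2.30 FPKM with Scramble, 10.9, 12.7 and 14.8 FPKM with Si-KDM4C#1 and 3.12, 3.27 and 3.48 FPKM with Si-KDM4C#2. It rose with Si-KDM4C#1 (1.95, adjusted p = 1.68e-07). With Si-KDM4C#2 its log2 fold change was 0.27 (adjusted p = 0.0353), a call lost under the GC adjustment (0.19, adjusted p = 0.128) and without Scramble library 2 or 3, Si-KDM4C#1 library 2 or any Si-KDM4C#2 library (0.22 to 0.30, highest adjusted p = 0.113). TGFBI, an extracellular matrix protein, fell with both (-0.51 and -1.34, adjusted p = 0.00162 and 3.92e-06), as did ANGPTL4, an inhibitor of lipoprotein lipase (-1.23 and -0.71, adjusted p = 4.19e-06 and 0.000234).

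Of 5 tested BMP target genes besides the ID genes, 4 were lower with Si-KDM4C#1 and 3 with Si-KDM4C#2, and 0 were higher. Of all tested genes, 33.9% and 25% were lower, so counts from so few genes carry little weight. ATOH8, a transcription factor induced by BMPs, was at 3.99, 3.35 and 3.27 FPKM with Scramble, 0.592, 0.586 and 0.430 FPKM with Si-KDM4C#1 and 2.97, 3.32 and 3.59 FPKM with Si-KDM4C#2. It fell with Si-KDM4C#1 (log2 fold change -1.56, SE 0.092, adjusted p = 4.22e-07 in limma) and had a value of -0.08 with Si-KDM4C#2 (adjusted p = 0.48), which was -0.30 under the GC adjustment (adjusted p = 0.013). The siRNAs differed by 1.48 (adjusted p = 7.87e-07). DLX3, a homeobox gene, was at 2.46, 1.64 and 2.77 FPKM with Scramble, at 0.367, 0.429 and 0.252 FPKM with Si-KDM4C#1, and at 1.35, 1.47 and 0.885 FPKM with Si-KDM4C#2. It fell with both siRNAs (-1.27 and -0.55, adjusted p = 6.16e-05 and 0.0125), the second of which was lost without Scramble library 3 (-0.45, adjusted p = 0.051). HAMP, the hepcidin gene, did not pass the filter on low levels.

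Of the 3 tested partners and relatives of the ID proteins, TCF3 passed a fold change of 2. This E protein gene was at 6.85, 5.61 and 6.36 FPKM with Scramble, 25.1, 22.9 and 25.8 FPKM with Si-KDM4C#1 and 25.1, 23.1 and 24.4 FPKM with Si-KDM4C#2. TCF3 rose with both siRNAs (log2 fold changes 1.82 and 1.80, adjusted p = 3.62e-08 and 7.78e-08 in limma), in the same 6 libraries in which ID2 was low. The related TCF12, named after its values were seen, fell with Si-KDM4C#1 (-0.53, adjusted p = 1.33e-05) and had 0.00 with Si-KDM4C#2 (adjusted p = 0.944).

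**Figure D4:**
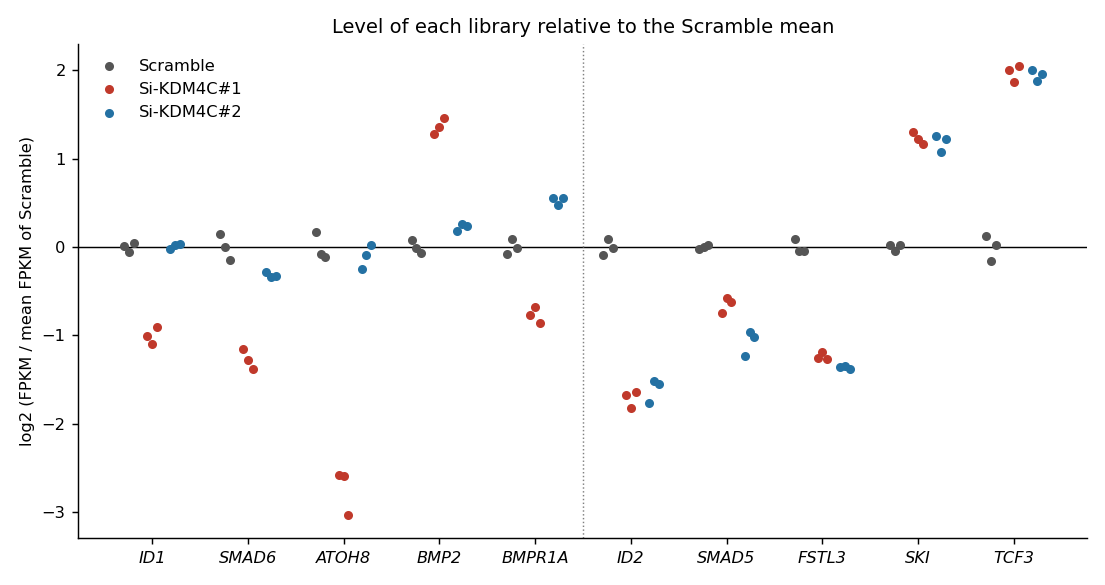
Level of each library relative to the mean of the Scramble libraries (y axis, log2 ratio of FPKM with no pseudocount) for 10 genes (x axis), with Scramble in grey, Si-KDM4C#1 in red and Si-KDM4C#2 in blue. The genes were picked and placed with their values known. Left of the dotted line the siRNAs differ in size or direction, with the ATOH8 mean at 15.2% of Scramble under the first and 93.1% under the second siRNA. There, SMAD6 and BMP2 moved the same way with both. Right of the line both move the same way, with TCF3 at 393% and 386%, though SMAD5 fell further with the second (63.9% and 47.7%).

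The gene whose levels followed each of the 9 most closely over the 9 libraries was named from the whole table, as a description. The libraries fall into 3 groups, so these Pearson correlations of log2(FPKM + 1) mainly compare group levels. The closest gene was RBBP8 for ID1 (r = 0.998), ATP6V1E1 for ID2 (r = 0.996), EIF4A2 for ID3 (r = 0.966), DDR1 for SMAD6 (r = 0.997) and C3orf62 for SMAD7 (r = 0.912). For SMAD3 it was MUT (r = 0.992), for TGFB1 TMEM65 (r = 0.995), for TGFBR1 PRPF38B (r = 0.986) and for TGFBR2 UBAP2 (r = 0.994).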

How the data were processed

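For each library the authors deposited a list of FPKM values, and the submitters' processing notes name FastQC 0.11.5, HISAT2 2.1.0, StringTie 1.3.3b, featureCounts, DESeq 1.28.0 and GRCh38. Multiplied by GENCODE 29 exon lengths and a fitted total per library, 97.54% to 97.69% of the values came out as whole fragments. The 14363 genes averaging 1 FPKM or more in some group were fitted as log2(FPKM + 1) by limma 3.58.1 under R 4.3.3, with an empirical Bayes trend and no covariates, which understates fold changes of low genes. P-values were adjusted by Benjamini-Hochberg. Libraries of a group differed beyond counting noise (chi-square of 2.69 to 6.30 per degree of freedom). The 9 genes and all lists were chosen with earlier results of these data known. In each list the named genes are those past FDR 0.05 and a fold change of 2 against Scramble, at most 4 by size, and for each of the 9 genes the most correlated gene. Alternatives were a pseudocount of 0.1, quantile normalization, no filter, at least 1 FPKM in every library, the 2 groups alone, the replicate block, a fold change tested against 2, FDR 0.01, voom on recovered fragments, a lowess GC adjustment (span 0.3) and leaving out each library. The fit was also run on simulated data with large planted changes in well-covered genes and a fixed dispersion. That run cannot show how the fit handles the smaller changes reported here. GDF6, GDF10, INHBA, ID4 and MSX2 were not analysed here.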

Additional observations from a re-analysis of the deposited data

Results flagged for a closer look

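The siRNAs were compared directly with each other in limma with Benjamini-Hochberg adjustment. For 11 of the genes named above they differed past a fold change of 2 or had opposite calls against the Scramble libraries they share. Of all tested genes, 6.91% differed between the siRNAs past FDR 0.05 and a fold change of 2, and 9.77% had opposite calls. Many of the genes named above were picked by the size of their change or after their values were seen. The count of 11 therefore cannot be set against these shares. Values are log2 differences, Si-KDM4C#2 minus Si-KDM4C#1. TGFBR1 (0.527) and TGFBR2 (0.531) were below Scramble with Si-KDM4C#1 and above it with Si-KDM4C#2. SKIL (1.36) and BMPR1A (1.04) did the same, and CDKN1A (-3.25) did the opposite, above Scramble with Si-KDM4C#1 and below it with Si-KDM4C#2. In some of the other fits, the calls of TGFBR1, TGFBR2 and SKIL with Si-KDM4C#2 and of TGFBR1 with Si-KDM4C#1 were lost. ID1 (1.01), ATOH8 (1.48) and INHA (1.26) were lower with Si-KDM4C#1, and BMP2 (-1.11) and CTGF (-1.68) were higher with it. The KDM4C paralog KDM4B (-1.63) was lower with Si-KDM4C#2. Groups of 3 libraries were not searched for single libraries that stand apart.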

How the results depend on the processing

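Of the 9 genes, the number past FDR 0.05 and a fold change of 2 with Si-KDM4C#1 was 2, and 1 when the fold change was tested against 2. Between the siRNAs it was 1 (ID1) and became 0 when the fold change was tested against 2, with voom on recovered fragments (0 with the replicate block) and with the GC adjustment (0 with the block). The number past FDR alone with both siRNAs together was 5, and 9 with quantile normalization and 8 with the GC adjustment and the replicate block. Leaving out 1 library gave 2 to 3 genes with Si-KDM4C#1 (3 without Scramble library 2 or Si-KDM4C#1 library 3), 1 to 1 with Si-KDM4C#2, 0 to 1 between the siRNAs (0 without Si-KDM4C#1 library 2, where ID1 was at 0.97) and 1 to 1 with both. By FDR alone the ranges were 5 to 7, 4 to 6, 6 to 8 and 4 to 6. The log2 fold change of KDM4C stayed between -1.43 and -1.39 with Si-KDM4C#1 and between -2.18 and -2.12 with Si-KDM4C#2 when 1 library was left out. Under the other settings it ran from -1.97 to -1.30 and from -4.10 to -2.12, each lowest with voom on recovered fragments. Some values changed sign in these fits. They were called only in the alternative fit, except ID3 between the siRNAs, which was called only in the main fit. With the GC adjustment, TGFB1 with Si-KDM4C#1 was at -0.17, ID1 with Si-KDM4C#2 at -0.19, ID3 with Si-KDM4C#2 at -0.16 and SMAD2 with Si-KDM4C#1 at 0.18, with the same values with and without the block. TGFBR1 with both siRNAs was at 0.13 with the GC adjustment and the block, and ID3 between the siRNAs was at -0.0038 with voom (-0.0053 with the block). The cause was not tested.

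Deviations of same-numbered libraries of different groups had a mean correlation of 0.0162 over 9 pairs (-0.0461 to 0.0546). Pairs with different numbers had -0.00808 over 18 pairs (-0.0529 to 0.0635). The labels do not say whether same-numbered libraries were prepared together, and so small a difference cannot settle it. With the replicate block alone, 2, 1, 1 and 1 genes passed both limits in the comparisons in the order above. The block lost 3 calls of single genes, TGFBR2 with both siRNAs (adjusted p = 0.0528 in limma), INHBE with Si-KDM4C#2 (adjusted p = 0.062) and CTGF with Si-KDM4C#2 (adjusted p = 0.0501), and changed no other. Of 1004 values of single genes under the other settings, 937 stayed on the same side of the threshold (31 of them changed sign with no call in either fit), 29 lost the call, 27 gained one and 11 changed sign with a call in at least 1 fit. Of 927 values with a library left out, 884 stayed on the same side (12 changed sign with no call in either fit), 38 lost the call and 5 gained one. Few fragments behind a gene limit its precision, with 142 for KDM4C under Si-KDM4C#2 and 46 for DLX3 under Si-KDM4C#1. The spread between libraries beyond counting noise limits it as well.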
